A study of Rattus norvegicus with 35 samples.

Results

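Retinas taken 48 h after intraorbital nerve crush (IONC) were compared with naive retinas across all genes on the Affymetrix rat RAE230.2 array. The log2 differences rested on 6 of the 35 arrays of the series, 3 of IONC 48 h retinas (replicates 1 to 3) and 3 of naive retinas (replicates 1 to 3). The arrays were chosen by their titles and by the beta-actin control probe sets, which read the 3′ and the 5′ end of the same transcript. The labels name no batch, and why arrays differ in these control signals was not tested. The log2 signal of the 3′ probe set exceeded that of the 5′ probe set by 1.86, 1.92 and 1.88 in IONC 48 h retinas and by 1.90, 1.88 and 1.75 in naive replicates 1 to 3. In the 2 remaining naive arrays, replicates 4 and 5, the excess was 3.19 and 2.98. These arrays gave no part of the log2 differences and served as a check, but as a separate group they entered the estimate of the spread. They also entered the choice of the largest changes to be named, and for those genes they are not a separate check.

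All rats were adult female Sprague-Dawley animals, an outbred stock. In the IONC group the left optic nerve was crushed with forceps in the orbit behind the eye, no drug was given as part of the comparison, and the retinas were taken 48 h later. Naive retinas came from unmanipulated rats, so an effect of the crush cannot be told apart from one of the operation and anaesthesia. Each array carried RNA of a pool of 4 left retinas from different animals. The p-values thus rest on the spread among pools rather than among single animals. That spread was estimated per probe set over all 32 arrays of the fit, most of them of other lesions and times. The median standard deviation among pools was 0.104 log2 in IONC 48 h retinas and 0.063 in naive replicates 1 to 3. With the 6 arrays alone, 254 probe sets passed the test described below, against 1458 in this fit. IONC 24 h and IONT 48 h retinas (intraorbital nerve transection, a complete cut nearer to the eye), with 3 arrays each, were compared where the text says so. In whole retina, fewer cells of a type and less RNA per cell cannot be told apart.

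Retinal ganglion cells are the output neurons of the retina, and their axons form the optic nerve. When that nerve is crushed or cut their axons are severed from the brain, and in adult mammals most of these cells die over the following weeks. Müller glia span the retina and respond to injury by building up intermediate filaments and acute-phase proteins, while resident microglia turn on complement, antigen presentation and lysosomal genes. At 48 h the cell bodies are still largely present, so the time point falls in the early phase of the response.

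Of 31042 probe sets tested, 1458 (4.7%) were called as different between IONC 48 h and naive retinas. A call required 3 things, namely an adjusted p below 0.01, log-odds of change (B) above 0 and at least 1.2-fold difference. There were 516 higher probe sets (1.66%) and 942 lower ones (3.03%) after crush. Taking for each of 14217 genes its brightest probe set, 373 genes (2.62%) were higher and 479 genes (3.37%) were lower. These shares are the background against which the gene groups below are read, and the median log2 change over all genes was 0.03. Large changes lay mostly on the side of increase: 81 called probe sets were at least 4-fold higher and 37 at least 4-fold lower, and at 8-fold the counts were 26 and 9. In 1454 of the called probe sets all 3 IONC 48 h arrays lay beyond naive replicates 1 to 3 on 1 side, which was also true of 40.5% of all probe sets. In 1011 of them (69.3%) the IONC 48 h arrays lay beyond all 5 naive arrays, against 28.1% of all probe sets.

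The 3 IONC 48 h pools did not respond alike. Where the other 2 crushed pools lay within 0.5 log2 units of each other, replicate 1 lay more than 1 log2 unit above their mean in 337 probe sets and below it in 199. Replicate 2 did so in 196 and 48 probe sets, replicate 3 in 124 and 99, and no naive replicate from 1 to 3 in more than 65. The mean log2 signal of the interferon response genes was 6.94, 5.06 and 5.82 in IONC 48 h replicates 1 to 3, against 4.62, 4.36 and 4.25 in naive replicates 1 to 3. The mean of the cyclin and mitotic genes was 5.74, 4.61 and 4.74 in IONC 48 h retinas, against 4.55, 4.52 and 4.52 in naive replicates 1 to 3, so only replicate 1 stood clear. Bipolar cell genes averaged 7.67, 8.18 and 8.25 in IONC 48 h retinas, against 8.19, 8.27 and 8.21 in naive replicates 1 to 3, and here too replicate 1 was the low pool. Ganglion cell genes averaged 6.78, 7.34 and 7.39 in IONC 48 h retinas, against 7.99, 8.03 and 8.06 in naive replicates 1 to 3, with all 3 crushed pools below. Without this pool 836 probe sets were called, against 1458 with it. Leaving out 1 array at a time, 44 of the 111 called genes among those chosen to be named lost their call at least once, and the gene paragraphs say without which array. A call also ended where B fell to 0 or below while the adjusted p stayed under 0.01.

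**Figure D1:**
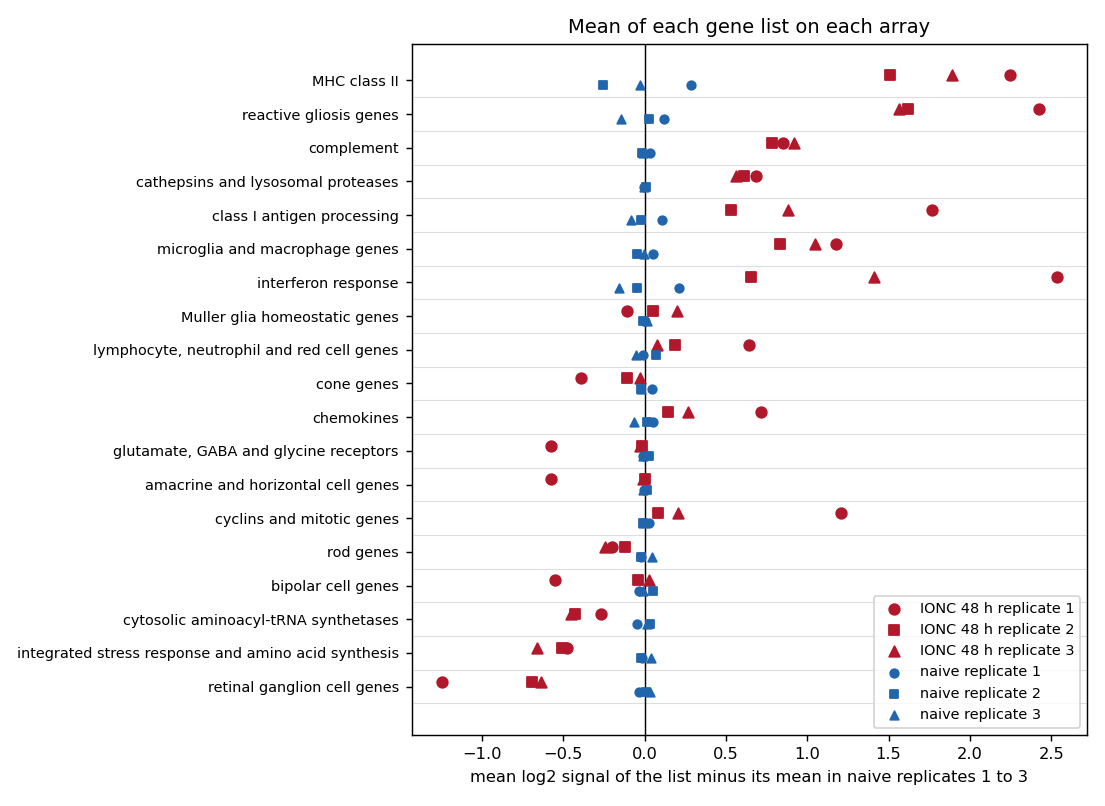
Mean log2 signal of each gene group on each array minus its mean in naive replicates 1 to 3 (x axis), with the IONC 48 h pools above the naive pools in each row and a marker shape for each replicate. IONC 48 h replicate 1 lies apart from replicates 2 and 3 in the interferon group (means 6.94, 5.06 and 5.82 before subtraction), while the ganglion cell group is below naive in all 3 pools.

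Serpina3n, an acute-phase serine protease inhibitor of reactive glia, had the largest increase among called genes with all crushed pools beyond all 5 naive arrays. Serpina3n had log2 signals of 9.85, 7.62 and 7.66 in IONC 48 h retinas, against 2.13, 2.09 and 2.18 in naive replicates 1 to 3 and 2.83 and 2.76 in naive replicates 4 and 5. All IONC 48 h pools lay far above all naive pools, where the signal was near the floor of the array (2.37 to 2.45 log2, below which lie the dimmest probe sets), and the log2 difference was 6.24 ± 0.61 (SE, adjusted p = 1.11e-06). Gfap, the intermediate filament protein of astrocytes and reactive Müller glia, had log2 signals of 11.14, 11.52 and 10.97 in IONC 48 h retinas, against 6.95, 7.16 and 7.13 in naive replicates 1 to 3 and 9.24 and 9.32 in naive replicates 4 and 5. The groups did not overlap, the log2 difference of 4.13 ± 0.31 (SE, adjusted p = 5.4e-08) corresponded to 17.5-fold, and naive replicates 4 and 5 lay between the groups. Lcn2, the iron-siderophore carrier lipocalin 2, had log2 signals of 11.92, 10.27 and 9.75 in IONC 48 h retinas, against 6.77, 6.37 and 6.63 in naive replicates 1 to 3 and 6.56 and 6.48 in naive replicates 4 and 5. Its log2 difference was 4.06 ± 0.59 (SE, adjusted p = 0.000104), with replicate 1 the highest of the IONC 48 h pools. Timp1, an inhibitor of matrix metalloproteinases, had log2 signals of 11.46, 10.38 and 9.83 in IONC 48 h retinas, against 6.96, 6.19 and 6.52 in naive replicates 1 to 3. Timp1 thus differed by 4.00 ± 0.45 (SE, adjusted p = 7.12e-06) on the log2 scale, or 16.0-fold. Edn2, the vasoactive peptide endothelin 2, had log2 signals of 7.78, 7.43 and 7.16 in IONC 48 h retinas, against 3.32, 3.47 and 3.95 in naive replicates 1 to 3. The 3 crushed pools were close to each other and the log2 difference was 3.88 ± 0.30 (SE, adjusted p = 6.03e-08). These calls were kept without any 1 of the 6 arrays.

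**Figure D2:**
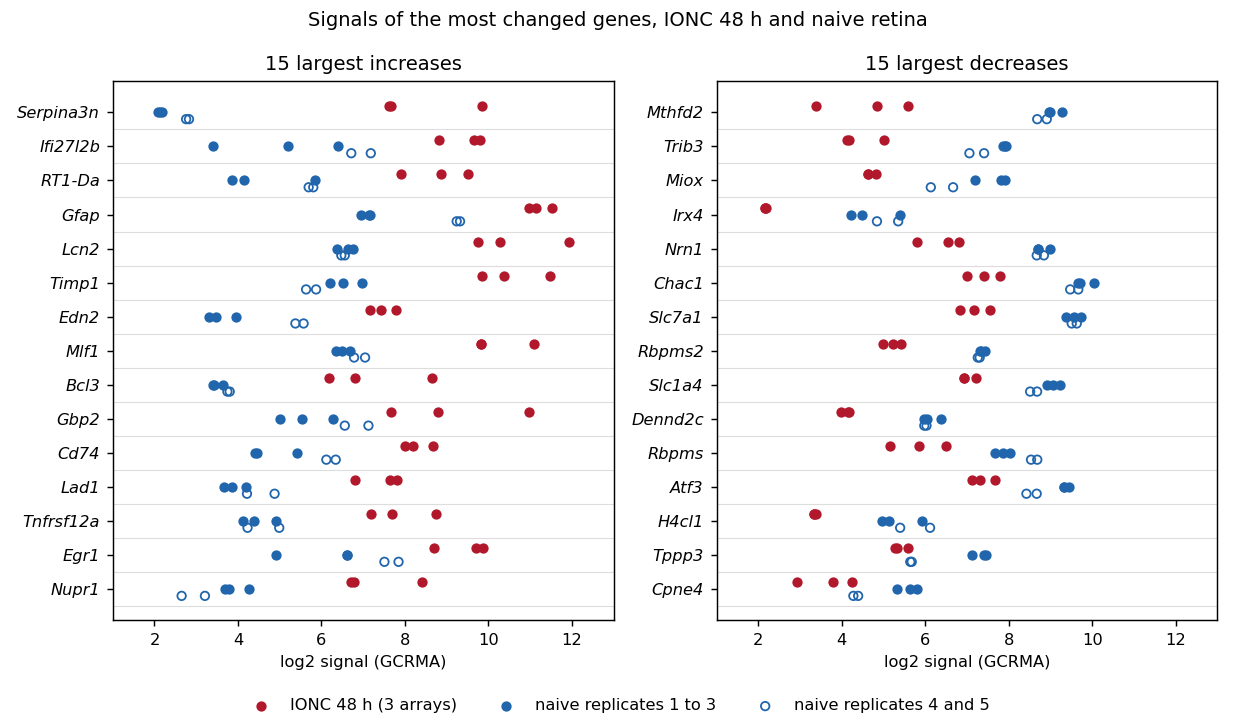
Log2 signal (x axis) on each array for the 15 largest increases and the 15 largest decreases among called genes with all crushed pools beyond all 5 naive arrays, with the IONC 48 h pools above naive replicates 1 to 3 and these above naive replicates 4 and 5 (open circles) in each row. Serpina3n lies at 7.62 to 9.85 after crush and at 2.09 to 2.18 in naive replicates 1 to 3, and Mthfd2 at 3.38 to 5.58 after crush and at 8.96 to 9.27 in naive replicates 1 to 3.

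Of 25 measured reactive gliosis genes 12 were higher and none lower, some of them also counted in other groups below, with a median log2 change of 1.44. Besides Serpina3n, Gfap, Lcn2 and Timp1, the ferroxidase ceruloplasmin (Cp) had log2 signals of 12.17, 12.00 and 11.91 in IONC 48 h retinas, against 9.19, 9.04 and 9.25 in naive replicates 1 to 3. The pools of each group lay close together, and the log2 difference was 2.86 ± 0.22 (SE, adjusted p = 6.03e-08). Vim, the filament protein vimentin that Müller glia already hold in the normal retina, differed by 0.72 ± 0.17 (SE, adjusted p = 0.0072) on the log2 scale. Clu, the extracellular chaperone clusterin that glia secrete (counted below with complement), had log2 signals of 13.84, 13.98 and 13.87 in IONC 48 h retinas and 12.93, 12.89 and 12.96 in naive replicates 1 to 3. That log2 difference was 0.97 ± 0.12 (SE, adjusted p = 2.23e-05). The call of Vim ended without IONC 48 h replicate 1 or 2 or naive replicate 1, 2 or 3 (adjusted p 0.0161 to 0.0495). Without IONC 48 h replicate 1, 11 genes of the gliosis group were called higher. Among the homeostatic genes of Müller glia 2 of 17 were higher and 1 was lower. Crym, a thyroid hormone binding protein, was higher by 1.22 ± 0.13 (SE, adjusted p = 4.88e-06), and the glutamate transporter gene Slc1a3 by 0.45 ± 0.10 (SE, adjusted p = 0.00464), both on the log2 scale. Car14, a membrane carbonic anhydrase, was lower, with a log2 difference of -1.22 ± 0.27 (SE, adjusted p = 0.00495). A further probe set of Slc1a3 changed in the opposite direction. The call of Slc1a3 ended without IONC 48 h replicate 2 or 3 or naive replicate 1, 2 or 3 (adjusted p 0.013 to 0.0258). The call of Car14 ended without IONC 48 h replicate 1 or 2 or naive replicate 1, 2 or 3 (adjusted p 0.0138 to 0.0347). Slc1a3 was at 12.04 and 11.95 log2 in naive replicates 4 and 5, above at least 2 of the 3 crushed pools.

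Of 24 measured ganglion cell genes 9 were lower and none higher, 23 had a negative change, and the median log2 change was -0.78. Rbpms2, an RNA-binding protein of ganglion cells, had log2 signals of 4.98, 5.22 and 5.42 in IONC 48 h retinas, against 7.35, 7.30 and 7.43 in naive replicates 1 to 3 and 7.30 and 7.26 in naive replicates 4 and 5. No pool overlapped, and Rbpms2 differed by -2.15 ± 0.29 (SE, adjusted p = 5.43e-05) on the log2 scale, although its second brightest probe set changed by 0.05. Nrn1, the axonal growth protein neuritin, had log2 signals of 5.79, 6.55 and 6.81 in IONC 48 h retinas, against 8.99, 8.71 and 8.69 in naive replicates 1 to 3. Replicate 1 was the lowest of the crushed pools, and the log2 difference was -2.42 ± 0.31 (SE, adjusted p = 3.27e-05). Nefh, the heavy neurofilament subunit, had log2 signals of 7.44, 8.22 and 8.28 in IONC 48 h retinas, against 9.74, 9.82 and 9.92 in naive replicates 1 to 3. Its log2 difference was -1.85 ± 0.27 (SE, adjusted p = 0.000131), beside -1.53 ± 0.21 (SE, adjusted p = 6.41e-05) for the medium subunit Nefm and -1.07 ± 0.17 (SE, adjusted p = 0.000265) for the light subunit Nefl. Sncg, gamma-synuclein, had log2 signals of 9.83, 10.38 and 10.36 in IONC 48 h retinas, against 11.86, 11.68 and 11.70 in naive replicates 1 to 3 and 11.02 and 11.14 in naive replicates 4 and 5. Sncg differed by -1.56 ± 0.21 (SE, adjusted p = 6.13e-05) on the log2 scale, again without overlap.

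Thy1, a surface glycoprotein long used to mark ganglion cells, had log2 signals of 7.81, 8.38 and 8.27 in IONC 48 h retinas, against 9.75, 9.62 and 9.47 in naive replicates 1 to 3 and 8.16 and 8.59 in naive replicates 4 and 5. All crushed pools lay below naive replicates 1 to 3, with a log2 difference of -1.46 ± 0.18 (SE, adjusted p = 1.98e-05), but naive replicate 4 lay among them. Rbpms, the relative of Rbpms2, had log2 signals of 5.16, 5.84 and 6.49 in IONC 48 h retinas, against 7.86, 8.03 and 7.67 in naive replicates 1 to 3 and 8.53 and 8.68 in naive replicates 4 and 5. Rbpms differed by -2.03 ± 0.45 (SE, adjusted p = 0.00488) on the log2 scale. Chrna6, a nicotinic acetylcholine receptor subunit, differed by -1.10 ± 0.23 (SE, adjusted p = 0.00295) on the log2 scale. A further probe set of Rbpms changed in the opposite direction. The call of Rbpms ended without IONC 48 h replicate 1 or 2 or naive replicate 1, 2 or 3 (adjusted p 0.0135 to 0.0391). The call of Chrna6 ended without IONC 48 h replicate 1 or naive replicate 2 or 3 (adjusted p 0.0136 to 0.0278). Without IONC 48 h replicate 1, 7 genes of the ganglion cell group were called lower. Isl1, a transcription factor of ganglion and other inner retinal cells, had log2 signals of 8.46, 9.14 and 9.13 in IONC 48 h retinas and 9.21, 9.44 and 8.93 in naive replicates 1 to 3. The log2 difference of Isl1 was -0.28 ± 0.20 (SE, adjusted p = 0.39) and did not pass the test, and neither did that of Tubb3, neuronal beta-tubulin (-0.27 ± 0.17, SE, adjusted p = 0.354), or of Pou4f1, the ganglion cell factor Brn3a (-0.14 ± 0.12, SE, adjusted p = 0.48). The signal of Pou4f1 was low in both groups, at 2.89 to 2.93 log2 in IONC 48 h retinas and 2.87 to 3.36 in naive replicates 1 to 3. Sncg, Nefl, Nefm, Thy1, Chrna6, Isl1, Tubb3 and Pou4f1 were chosen for naming after their values were seen.

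**Figure D3:**
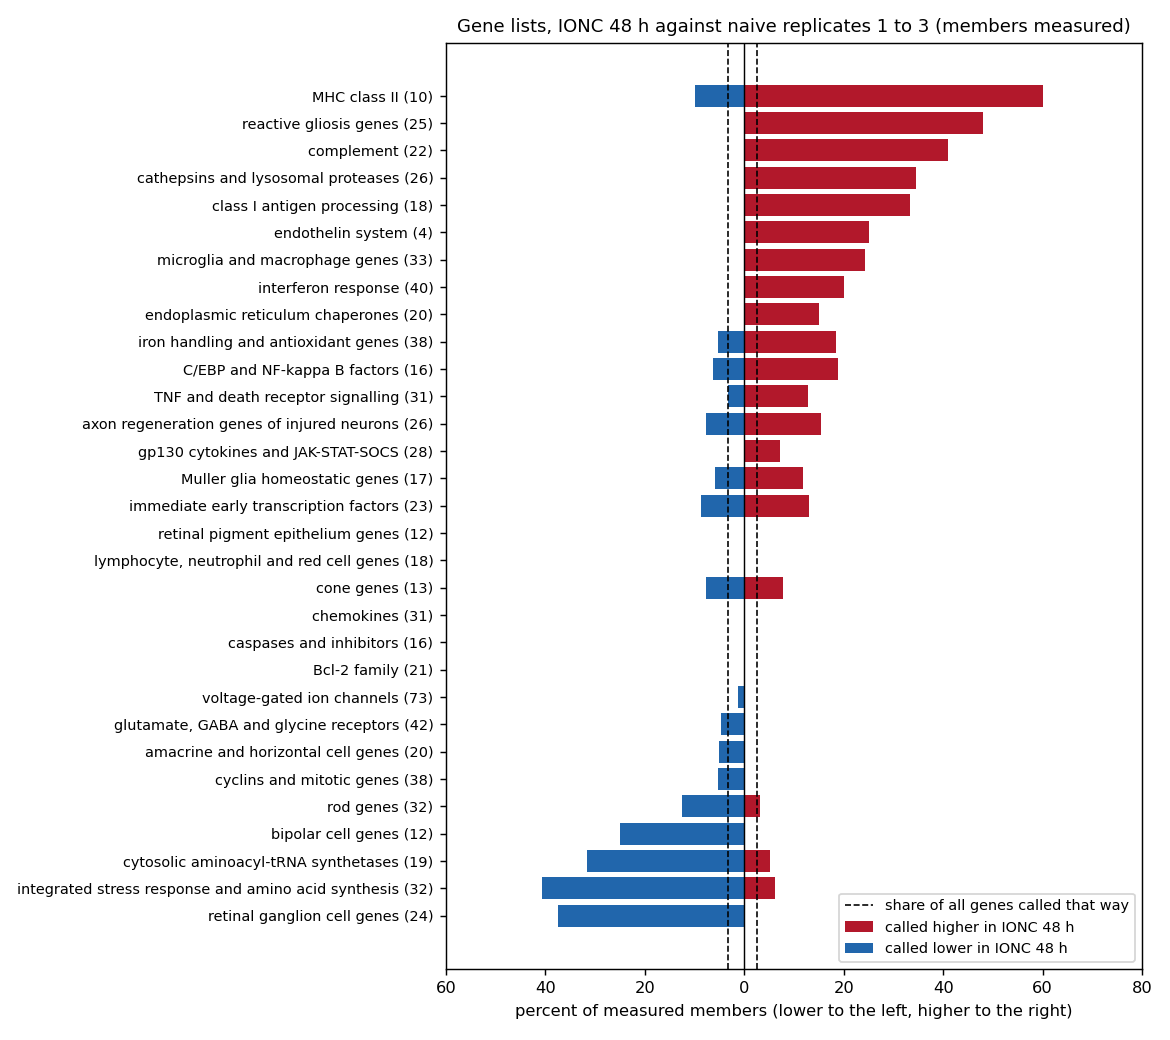
Percent of the measured genes of each group called higher (bars to the right) and lower (bars to the left) in IONC 48 h against naive replicates 1 to 3, with the shares of all genes (2.62% higher, 3.37% lower) as dashed lines. The reactive gliosis group has 12 of 25 genes higher and none lower, the ganglion cell group none higher and 9 of 24 lower, and the integrated stress response group 2 higher and 13 lower of 32.

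Growth-associated genes of injured neurons moved in both directions, with 4 of 26 higher (Ecel1, Stmn4, Crip2 and Gadd45a) and 2 lower (Atf3 and Jun). Ecel1, a membrane endopeptidase known to be induced in injured neurons, had log2 signals of 4.29, 6.29 and 4.82 in IONC 48 h retinas, against 1.78, 2.07 and 2.08 in naive replicates 1 to 3 and 2.08 and 1.78 in naive replicates 4 and 5. The naive signal was near the floor, all crushed pools lay above it, and the log2 difference was 3.16 ± 0.35 (SE, adjusted p = 4.87e-06), which is not exact since signals near the floor cannot be told apart from background. Stmn4, a microtubule-destabilising stathmin, was higher by 1.27 ± 0.24 (SE, adjusted p = 0.00144) on the log2 scale. The call of Stmn4 ended without IONC 48 h replicate 3 (adjusted p = 0.00679). Vgf, a neuropeptide precursor, had log2 signals of 9.45, 10.04 and 8.76 in IONC 48 h retinas, against 7.53, 7.50 and 7.54 in naive replicates 1 to 3. The groups were well separated, with a log2 difference of 1.89 ± 0.20 (SE, adjusted p = 3.51e-06). Atf3, a stress-induced transcription factor often used as a mark of axonal injury, was lower at 48 h. Atf3 had log2 signals of 7.68, 7.12 and 7.32 in IONC 48 h retinas, against 9.32, 9.45 and 9.34 in naive replicates 1 to 3 and 8.42 and 8.67 in naive replicates 4 and 5. The 3 crushed pools lay below all 5 naive pools, and the log2 difference was -2.0 ± 0.13 (SE, adjusted p = 3.01e-08). Jun, another injury-responsive factor, had log2 signals of 10.17, 9.999 and 9.82 in IONC 48 h retinas, against 11.48, 11.73 and 11.68 in naive replicates 1 to 3 and 9.36 and 9.73 in naive replicates 4 and 5. Jun was lower than naive replicates 1 to 3 by a log2 difference of -1.63 ± 0.21 (SE, adjusted p = 3.62e-05), but higher than naive replicates 4 and 5 in all 3 crushed pools, so its direction depended on which naive arrays were used. Vgf was chosen for naming after its values were seen.

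The immediate early transcription factors counted 3 higher (Fos, Egr1 and Ier3) and 2 lower (Jun and Atf3) of 23. Only 1 was called higher without IONC 48 h replicate 1 or 2, or without any 1 of naive replicates 1 to 3. Egr1, a zinc finger factor, had log2 signals of 9.88, 9.70 and 8.70 in IONC 48 h retinas, against 6.61, 6.61 and 4.91 in naive replicates 1 to 3 and 7.85 and 7.51 in naive replicates 4 and 5. No crushed pool overlapped a naive pool, and the log2 difference was 3.38 ± 0.37 (SE, adjusted p = 5e-06). Fos, the partner of Jun, differed by 1.62 ± 0.37 (SE, adjusted p = 0.00648) on the log2 scale. Among 16 C/EBP and NF-kappa B factors 3 were higher (1 without IONC 48 h replicate 1) and 1 was lower. Cebpd, an acute-phase activator, had log2 signals of 9.75, 9.79 and 9.55 in IONC 48 h retinas, against 6.68, 6.52 and 6.34 in naive replicates 1 to 3. Cebpd differed by 3.18 ± 0.42 (SE, adjusted p = 4.48e-05) on the log2 scale, a 9.08-fold difference with tight pools on both sides. Bcl3, an NF-kappa B co-regulator, had log2 signals of 8.64, 6.80 and 6.17 in IONC 48 h retinas, against 3.41, 3.42 and 3.63 in naive replicates 1 to 3. Here replicate 1 was the highest pool and the log2 difference was 3.72 ± 0.70 (SE, adjusted p = 0.00134). Cebpb was higher by 1.05 ± 0.25 (SE, adjusted p = 0.0076) and Cebpg, a dimer partner of ATF4, lower by a log2 difference of -0.78 ± 0.11 (SE, adjusted p = 6.97e-05). The call of Fos ended without any 1 of the 6 arrays (adjusted p 0.0119 to 0.0301). The call of Cebpb ended without any 1 of the 6 arrays (adjusted p 0.00933 to 0.0377). The call of Bcl3 ended without IONC 48 h replicate 1 (adjusted p = 0.0134).

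In the gp130 cytokine and JAK-STAT group, through which ciliary neurotrophic factor and its relatives act on Müller glia and neurons, 2 of 28 genes were higher and none lower, with 1 higher without IONC 48 h replicate 1 or 2 or naive replicate 2. Stat3, the main transcription factor of this pathway, had log2 signals of 9.85, 9.94 and 9.41 in IONC 48 h retinas, against 8.62, 8.46 and 8.5 in naive replicates 1 to 3 and 7.35 and 7.94 in naive replicates 4 and 5. All crushed pools lay above all naive pools, and the log2 difference was 1.21 ± 0.22 (SE, adjusted p = 0.00114). Jak3, a Janus kinase of blood cell lineages, was higher by 1.83 ± 0.38 (SE, adjusted p = 0.00282) on the log2 scale. The call of Jak3 ended without IONC 48 h replicate 1 or 2 or naive replicate 2 (adjusted p 0.0122 to 0.0239). Jak2, named after its values were seen, had a log2 difference of -0.12 ± 0.23 (SE, adjusted p = 0.749) and did not pass the test.

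Mthfd2 and Trib3, the 2 largest decreases among called genes with all crushed pools beyond all 5 naive arrays, belonged to genes of the integrated stress response, in which kinases that sense amino acid shortage or unfolded protein raise translation of the factor ATF4, which in turn drives amino acid synthesis, transport and tRNA charging. Of 32 measured genes 13 were lower and 2 were higher (Nupr1 and Cebpb), with a median log2 change of -0.26. Mthfd2, a mitochondrial folate enzyme, had log2 signals of 5.58, 4.84 and 3.38 in IONC 48 h retinas, against 8.96, 8.99 and 9.27 in naive replicates 1 to 3 and 8.91 and 8.68 in naive replicates 4 and 5. No pools overlapped, and the log2 difference was -4.47 ± 0.50 (SE, adjusted p = 5.37e-06), or 22.2-fold lower. Trib3, a pseudokinase induced by ATF4, had log2 signals of 5.02, 4.17 and 4.13 in IONC 48 h retinas, against 7.91, 7.85 and 7.92 in naive replicates 1 to 3 and 7.06 and 7.41 in naive replicates 4 and 5. Trib3 differed by -3.45 ± 0.34 (SE, adjusted p = 1.13e-06) on the log2 scale, or 10.9-fold lower. Chac1, which degrades glutathione, had log2 signals of 7.01, 7.78 and 7.40 in IONC 48 h retinas, against 9.70, 9.66 and 10.04 in naive replicates 1 to 3. Chac1 differed by -2.4 ± 0.37 (SE, adjusted p = 0.000216) on the log2 scale. Slc7a1, a transporter of cationic amino acids, differed by -2.37 ± 0.40 (SE, adjusted p = 0.000502) on the same scale. Slc1a4, a transporter of alanine, serine and cysteine that was not on the list, differed by -2.04 ± 0.21 (SE, adjusted p = 3.21e-06). A further probe set of Slc7a1 changed in the opposite direction. These 5 calls were kept without any 1 of the 6 arrays.

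Atf4 itself had log2 signals of 12.25, 12.36 and 12.21 in IONC 48 h retinas, against 13.09, 13.19 and 13.16 in naive replicates 1 to 3. The transcript was abundant in both groups and the log2 difference was -0.88 ± 0.11 (SE, adjusted p = 3.1e-05). Ddit3, the partner factor CHOP, had log2 signals of 9.04, 9.10 and 9.19 in IONC 48 h retinas, against 9.92, 9.94 and 9.92 in naive replicates 1 to 3, a log2 difference of -0.82 ± 0.10 (SE, adjusted p = 1.63e-05). Herpud1, of endoplasmic reticulum protein disposal, was lower by a log2 difference of -1.17 ± 0.11 (SE, adjusted p = 9.93e-07). Asns, asparagine synthetase, had log2 signals of 10.08, 9.96 and 9.89 in IONC 48 h retinas, against 11.30, 11.49 and 11.44 in naive replicates 1 to 3. Its log2 difference of -1.43 ± 0.35 (SE, adjusted p = 0.00908) was not called because B was not above 0. Nupr1, a stress-induced chromatin protein that is also a known ATF4 target, went the other way. It had log2 signals of 8.40, 6.78 and 6.70 in IONC 48 h retinas, against 3.79, 3.70 and 4.27 in naive replicates 1 to 3 and 3.21 and 2.65 in naive replicates 4 and 5, with a log2 difference of 3.37 ± 0.66 (SE, adjusted p = 0.00177). The call of Nupr1 ended without IONC 48 h replicate 1 or naive replicate 2 (adjusted p 0.0104 to 0.017). With IONC 48 h replicate 1 left out, 12 genes of the group were called lower and none higher. Among 19 cytosolic aminoacyl-tRNA synthetases, which load amino acids onto tRNAs, 6 were lower (Aars1, Cars1, Iars1, Mars1, Tars1 and Yars1) and 1 was higher (Qars1, a log2 change of 0.51). Tars1, which charges threonine tRNA, had log2 signals of 8.79, 8.15 and 8.32 in IONC 48 h retinas, against 9.76, 9.94 and 9.84 in naive replicates 1 to 3. The log2 difference was -1.42 ± 0.20 (SE, adjusted p = 7.42e-05) for Tars1, -1.36 ± 0.25 (SE, adjusted p = 0.00103) for Iars1 and -1.16 ± 0.22 (SE, adjusted p = 0.0014) for Cars1. It was -1.09 ± 0.21 (SE, adjusted p = 0.00173) for Mars1 and -0.66 ± 0.13 (SE, adjusted p = 0.00177) for Aars1. The call of Cars1 ended without naive replicate 2 (adjusted p = 0.0117). The call of Aars1 ended without IONC 48 h replicate 3 or naive replicate 2 (adjusted p 0.00806 to 0.0116). Of 20 chaperones of the endoplasmic reticulum 3 were higher and none lower, with Sdf2l1, a part of a chaperone complex, at 1.57 ± 0.31 (SE, adjusted p = 0.00201). Calr, the calcium-binding chaperone calreticulin, was at 0.78 ± 0.18 (SE, adjusted p = 0.00738) and the disulfide isomerase P4hb at 0.61 ± 0.13 (SE, adjusted p = 0.00409), all log2 differences. The call of Sdf2l1 ended without IONC 48 h replicate 1 or naive replicate 1 (adjusted p 0.0131 to 0.0198). The call of Calr ended without IONC 48 h replicate 1 or 2 or naive replicate 1, 2 or 3 (adjusted p 0.0174 to 0.0606). The call of P4hb ended without IONC 48 h replicate 1 or 2 or naive replicate 1 or 2 (adjusted p 0.0158 to 0.0379). No chaperone was called without IONC 48 h replicate 1 or naive replicate 1, and 6 were called higher without IONC 48 h replicate 3. Atf4, Ddit3, Asns, Herpud1, Aars1 and the synthetase list were chosen after their values were seen.

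ATF4 is known to bind with a C/EBP partner at C/EBP-ATF elements near the start of its target genes. The following sequences are shown because Trib3, Chac1, Slc1a4, Tars1 and Iars1, which fell, and Nupr1, which rose, hold such an element in the 250 bases before their start site. They are promoter windows in gene orientation from RefSeq, build GRCr8, with the element in capitals on whichever strand it was found (TGATGNAA, here read from the opposite strand). Promoters of 250 bases before to 50 after the start site were found for 11700 genes.
Trib3 (chr3:161275537-161275564, minus strand, log2 change -3.45): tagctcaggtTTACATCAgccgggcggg
Chac1 (chr3:126795944-126795991, plus strand, log2 change -2.4): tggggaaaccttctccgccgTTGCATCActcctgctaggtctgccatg
Slc1a4 (chr14:98761770-98761812, minus strand, log2 change -2.04): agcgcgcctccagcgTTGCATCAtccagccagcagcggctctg
Tars1 (chr2:62114812-62114839, minus strand, log2 change -1.42): tggcgtcccgTTGCATCAgctggttagc
Iars1 (chr17:15193659-15193686, minus strand, log2 change -1.36): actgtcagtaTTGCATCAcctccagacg
Nupr1 (chr1:190645929-190645976, minus strand, log2 change 3.37): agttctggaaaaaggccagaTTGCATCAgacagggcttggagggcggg

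Trib3 held the form with a free base, and the 5 others held the full form TGATGCAA. On either strand the full form was found in 72 of all 11700 promoters (0.615%), in 12 of 401 genes called lower (2.99%) and in 2 of 306 genes called higher (0.654%), Gadd45g and Nupr1. With the free base the shares were 2.2% of all promoters, 4.74% of those called lower and 0.654% of those called higher. Of 17 synthetase promoters 7 held the full form, and so did 4 of 30 in the integrated stress response group. The interferon-stimulated element in the form GAAANNGAA, searched likewise, was in 7.19% of all promoters, 8.5% of those of genes called higher and 5.99% of those of genes called lower, which lie close together. It was in 20 of 30 interferon response promoters. The motifs were chosen after the expression values were seen, several forms were tried, and a match is a description of the letters in the window.

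Of 22 complement genes 9 were higher and none lower, with a median log2 change of 0.09. C3, the central component of the cascade, had log2 signals of 8.06, 8.16 and 8.37 in IONC 48 h retinas, against 5.47, 5.61 and 5.16 in naive replicates 1 to 3 and 6.69 and 6.87 in naive replicates 4 and 5. All crushed pools lay above all naive pools, and the log2 difference was 2.78 ± 0.25 (SE, adjusted p = 3.85e-07), or 6.86-fold. C1qa, a chain of the recognition molecule made by microglia, had log2 signals of 8.40, 8.51 and 8.86 in IONC 48 h retinas, against 6.45, 5.71 and 6.22 in naive replicates 1 to 3 and 4.71 and 5.83 in naive replicates 4 and 5. Its log2 difference was 2.46 ± 0.36 (SE, adjusted p = 0.000103), beside 2.78 ± 0.39 (SE, adjusted p = 7.96e-05) for another chain, C1qc. C1s, the protease that C1q activates, had log2 signals of 8.71, 8.09 and 8.43 in IONC 48 h retinas, against 5.87, 5.65 and 6.2 in naive replicates 1 to 3. C1s differed by 2.5 ± 0.50 (SE, adjusted p = 0.0023) on the log2 scale. The call of C1s ended without IONC 48 h replicate 1 or naive replicate 1 or 2 (adjusted p 0.0105 to 0.0153). Without IONC 48 h replicate 1 or naive replicate 1, 6 complement genes were called higher.

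Genes of microglia and macrophages were higher in 8 of 33 cases and lower in none, and all 33 had a positive change. The count was 5 without IONC 48 h replicate 1 or 2, and 4 without IONC 48 h replicate 3 or any 1 of naive replicates 1 to 3. Fcer1g, a signalling chain of Fc receptors, had log2 signals of 8.26, 7.64 and 7.74 in IONC 48 h retinas, against 5.22, 4.66 and 4.10 in naive replicates 1 to 3. The crushed pools were clear of the naive pools, and the log2 difference was 3.22 ± 0.44 (SE, adjusted p = 6.05e-05). Csf1r, the receptor on which microglia depend, had log2 signals of 7.03, 7.75 and 7.68 in IONC 48 h retinas, against 4.81, 5.43 and 4.84 in naive replicates 1 to 3. The log2 difference of Csf1r was 2.46 ± 0.33 (SE, adjusted p = 4.48e-05), with replicate 1 the lowest of the crushed pools. Tyrobp, an adaptor of microglial surface receptors, differed by 2.42 ± 0.36 (SE, adjusted p = 0.000136) and lysozyme (Lyz2) by 3.00 ± 0.65 (SE, adjusted p = 0.00426). P2ry12, a purine receptor of resting microglia, had log2 signals of 5.77, 6.69 and 7.16 in IONC 48 h retinas, against 3.90, 4.39 and 4.36 in naive replicates 1 to 3, and Aif1 (Iba1) had log2 signals of 5.69, 5.92 and 6.19 in IONC 48 h retinas and 3.66, 4.05 and 3.96 in naive replicates 1 to 3. Both were higher, by 2.32 ± 0.53 (SE, adjusted p = 0.00648) and 2.04 ± 0.48 (SE, adjusted p = 0.00734) on the log2 scale. The call of Lyz2 ended without IONC 48 h replicate 1 or 3 or naive replicate 1, 2 or 3 (adjusted p 0.0066 to 0.0364). The call of P2ry12 ended without IONC 48 h replicate 2 or 3 or naive replicate 1, 2 or 3 (adjusted p 0.0189 to 0.0317). The call of Aif1 ended without any 1 of the 6 arrays (adjusted p 0.0184 to 0.033). Markers of blood-borne cells gave no call among 18 measured, 10 of them near the floor. Their mean log2 signal was 3.59, 3.14 and 3.02 in IONC 48 h retinas, against 2.94, 3.02 and 2.90 in naive replicates 1 to 3. The neutrophil gene S100a9 was at 8.97, 5.26 and 3.38 log2 in IONC 48 h retinas, against 2.94, 2.72 and 2.83 in naive replicates 1 to 3, a spread over the crushed pools that left an adjusted p of 0.192. The T cell gene Cd3e was at 4.43, 4.3 and 4.43 in IONC 48 h retinas and 4.26, 4.21 and 3.93 in naive replicates 1 to 3. Haemoglobin (Hbb) was at 11.82, 11.18 and 10.66 in IONC 48 h retinas and 10.80, 12.17 and 10.91 in naive replicates 1 to 3. The part of blood cells in these differences was not tested. P2ry12 and Aif1 were chosen for naming after their values were seen.

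In the class II group, whose products show peptides to helper T cells, 6 of 10 were higher and 1 was lower. RT1-Da, a class II alpha chain, had log2 signals of 9.51, 7.91 and 8.87 in IONC 48 h retinas, against 5.85, 4.14 and 3.86 in naive replicates 1 to 3 and 5.69 and 5.80 in naive replicates 4 and 5. The groups did not overlap and the log2 difference was 4.14 ± 0.78 (SE, adjusted p = 0.0014), and the probe sets of the RT1 family may read more than 1 of its near-identical genes. Cd74, the class II invariant chain, had log2 signals of 8.66, 7.99 and 8.19 in IONC 48 h retinas, against 5.42, 4.40 and 4.45 in naive replicates 1 to 3 and 6.34 and 6.12 in naive replicates 4 and 5. Cd74 differed by 3.52 ± 0.56 (SE, adjusted p = 0.000324) on the log2 scale, and its call was kept without any 1 array. RT1-Bb and RT1-DMb differed by 3.01 ± 0.69 (SE, adjusted p = 0.00608) and 1.92 ± 0.42 (SE, adjusted p = 0.00448) on the log2 scale. Ciita, the activator of class II genes, went the opposite way. Ciita had log2 signals of 5.34, 5.69 and 5.71 in IONC 48 h retinas, against 7.26, 7.44 and 7.56 in naive replicates 1 to 3 and 7.13 and 7.49 in naive replicates 4 and 5, and all crushed pools were below all naive pools. Its log2 difference was -1.84 ± 0.39 (SE, adjusted p = 0.00327). The call of RT1-Da ended without IONC 48 h replicate 1 or naive replicate 3 (adjusted p 0.0107 to 0.0114). The call of RT1-Bb ended without any 1 of the 6 arrays (adjusted p 0.0101 to 0.0321). The call of RT1-DMb ended without IONC 48 h replicate 1 or 2 or naive replicate 1 or 2 (adjusted p 0.0183 to 0.0283). The call of Ciita ended without IONC 48 h replicate 1 or 2 or naive replicate 2 or 3 (adjusted p 0.0107 to 0.0204). Ciita was chosen for naming after its values were seen.

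In the class I group 6 of 18 genes were higher, none lower, and all 18 changes were positive. B2m, the light chain of class I molecules, had log2 signals of 12.92, 12.22 and 12.82 in IONC 48 h retinas, against 11.54, 11.19 and 11.18 in naive replicates 1 to 3. B2m differed by 1.35 ± 0.22 (SE, adjusted p = 0.000342) on the log2 scale and Psme1, a proteasome activator, by 1.09 ± 0.16 (SE, adjusted p = 0.000174). Psmb9, an immunoproteasome subunit, had log2 signals of 9.31, 6.01 and 6.90 in IONC 48 h retinas, against 5.40, 4.46 and 4.64 in naive replicates 1 to 3. Replicate 1 was far above the other crushed pools, and the log2 difference was 2.57 ± 0.56 (SE, adjusted p = 0.00439). The peptide loading protein Tapbp differed by 1.45 ± 0.31 (SE, adjusted p = 0.00383). The call of Psmb9 ended without IONC 48 h replicate 1 or naive replicate 2 or 3 (adjusted p 0.0213 to 0.0275). The call of Tapbp ended without IONC 48 h replicate 1 or naive replicate 1, 2 or 3 (adjusted p 0.0118 to 0.0187). When IONC 48 h replicate 1, naive replicate 2 or naive replicate 3 was left out, 3 class I genes and 3 class II genes were called higher.

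Interferon response genes were higher in 8 of 40 cases and lower in none, with a median log2 change of 1.31. The small count beside the large median went with the differences among the crushed pools described above: without replicate 1 only 2 were called, and without replicate 2 the count was 15. It was 2 without naive replicate 2 or 3, 4 without IONC 48 h replicate 3 and 5 without naive replicate 1. Ifi27l2b, an interferon-induced membrane protein gene, had log2 signals of 9.80, 8.82 and 9.65 in IONC 48 h retinas, against 6.40, 5.19 and 3.40 in naive replicates 1 to 3 and 7.18 and 6.71 in naive replicates 4 and 5. All crushed pools exceeded all naive pools, and the log2 difference was 4.43 ± 0.59 (SE, adjusted p = 4.17e-05). Irf9, the DNA-binding part of the interferon-activated factor, had log2 signals of 9.68, 7.99 and 8.23 in IONC 48 h retinas, against 6.22, 6.0 and 6.12 in naive replicates 1 to 3 and 7.30 and 6.75 in naive replicates 4 and 5. Irf9 differed by 2.52 ± 0.35 (SE, adjusted p = 6.75e-05) on the log2 scale, and neither call ended without any 1 array. Gbp2, a guanylate-binding protein, had log2 signals of 10.98, 7.67 and 8.78 in IONC 48 h retinas, against 6.29, 5.54 and 5.01 in naive replicates 1 to 3 and 7.13 and 6.56 in naive replicates 4 and 5. Gbp2 differed by 3.53 ± 0.78 (SE, adjusted p = 0.0046) on the log2 scale, and replicate 1 was the highest pool by over 2 log2 units. Irgm and Ifitm3, both of antiviral defence, differed by 2.14 ± 0.50 (SE, adjusted p = 0.00692) and 2.04 ± 0.48 (SE, adjusted p = 0.00766), and the double-stranded RNA sensor kinase Eif2ak2 by 1.58 ± 0.37 (SE, adjusted p = 0.00701). The call of Gbp2 ended without IONC 48 h replicate 1 or 3 or naive replicate 2 or 3 (adjusted p 0.00721 to 0.0423). The call of Irgm ended without IONC 48 h replicate 1 or 3 or naive replicate 2 or 3 (adjusted p 0.0191 to 0.0591). The call of Ifitm3 ended without any 1 of the 6 arrays (adjusted p 0.00948 to 0.0551). The call of Eif2ak2 ended without IONC 48 h replicate 1 or 3 or naive replicate 2 or 3 (adjusted p 0.0165 to 0.0595). Ifitm3 and Eif2ak2 were chosen for naming after their values were seen. The element GAAANNGAA was in 20 of 30 interferon response promoters and in 4 of 6 of those called. In the class I group it was in 8 of 15 promoters and in 2 of 5 of those called. For Gbp2 and B2m, a gene called higher in each of these groups, the promoter window around it is shown in gene orientation, with the element in capitals on whichever strand it was found.
Gbp2 (chr2:234005677-234005725, plus strand): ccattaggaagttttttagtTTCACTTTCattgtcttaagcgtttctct
B2m (chr3:129549160-129549208, plus strand): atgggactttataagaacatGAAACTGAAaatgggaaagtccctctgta

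None of 31 chemokine genes was called in either direction. Ccl2, which attracts monocytes, had log2 signals of 9.92, 6.61 and 5.97 in IONC 48 h retinas, against 2.81, 2.39 and 2.65 in naive replicates 1 to 3 and 3.08 and 2.43 in naive replicates 4 and 5. All crushed pools lay at least 3 log2 units above all naive 1 to 3 pools, but the spread among them was wide, and the log2 difference of 4.88 ± 1.29 (SE, adjusted p = 0.016) did not pass the test. Cxcl12 and Cxcl14 differed by -0.25 ± 0.17 (SE, adjusted p = 0.39) and 0.26 ± 0.17 (SE, adjusted p = 0.367), and Ccl6 by -0.42 ± 0.96 (SE, adjusted p = 0.796).

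TNF and death receptor signalling genes were higher in 4 of 31 cases (Tnfrsf12a, Tnfrsf1a, Litaf and Ltbr) and lower in 1 (Tnfaip3). Tnfrsf12a, the receptor of the cytokine TWEAK, had log2 signals of 8.74, 7.69 and 7.19 in IONC 48 h retinas, against 4.37, 4.91 and 4.12 in naive replicates 1 to 3 and 4.23 and 4.99 in naive replicates 4 and 5. The groups did not overlap, and the log2 difference was 3.41 ± 0.39 (SE, adjusted p = 8.22e-06). Tnfrsf1a, the receptor of TNF that carries a death domain, had log2 signals of 7.74, 7.26 and 6.29 in IONC 48 h retinas, against 4.59, 4.63 and 4.38 in naive replicates 1 to 3. It differed by 2.56 ± 0.44 (SE, adjusted p = 0.000639) on the log2 scale, and Litaf, a lysosomal membrane protein induced by lipopolysaccharide, by 2.34 ± 0.27 (SE, adjusted p = 1.06e-05). Tnfaip3 (A20), a brake on NF-kappa B, had log2 signals of 9.37, 9.59 and 9.49 in IONC 48 h retinas, against 10.90, 10.92 and 10.92 in naive replicates 1 to 3 and 10.70 and 10.23 in naive replicates 4 and 5. The log2 difference of Tnfaip3 was -1.43 ± 0.17 (SE, adjusted p = 1.63e-05). The 4 calls of these named genes were kept without any 1 array. The probe set annotated to Tradd, the adaptor of Tnfrsf1a, was near the floor in both groups. The paper states that the arrays lacked probes for this transcript, and whether the probe set reads it was not tested. By the paper, TRADD protein rose after both injuries and was present in naive and injured ganglion cells. A signal near the floor cannot be told apart from background, so it does not show that Tradd is absent from the retina.

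None of 16 caspases and inhibitors and none of 21 Bcl-2 family genes was called. Xiap, an inhibitor of caspases, had log2 signals of 7.64, 8.56 and 9.36 in IONC 48 h retinas, against 9.38, 9.67 and 9.55 in naive replicates 1 to 3 and 9.80 and 9.84 in naive replicates 4 and 5. Replicate 3 of the crushed pools lay close to the naive pools, and the log2 difference of -1.01 ± 0.30 (SE, adjusted p = 0.0325) did not pass the test. Casp2 and Diablo, an antagonist of Xiap, differed by -0.27 ± 0.15 (SE, adjusted p = 0.323) and 0.09 ± 0.08 (SE, adjusted p = 0.485). Mcl1, which protects mitochondria, differed by -0.11 ± 0.18 (SE, adjusted p = 0.714), and the mitophagy receptors Bnip3 and Bnip3l by -0.20 ± 0.15 (SE, adjusted p = 0.407) and 0.18 ± 0.11 (SE, adjusted p = 0.352). Among 38 cyclins and mitotic genes 2 were lower and none higher, while 33 had a positive change and the median log2 change was 0.48. Without IONC 48 h replicate 2, 4 were called higher. Tyms, thymidylate synthase, differed by -1.51 ± 0.20 (SE, adjusted p = 5.53e-05) and Prc1, a spindle midzone protein, by -1.36 ± 0.21 (SE, adjusted p = 0.000271) on the log2 scale. Both calls were kept without any 1 array.

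Cathepsins and other lysosomal proteases were higher in 9 of 26 cases and lower in none. Ctsc, which activates granule proteases, had log2 signals of 8.35, 7.35 and 7.27 in IONC 48 h retinas, against 5.83, 6.05 and 5.79 in naive replicates 1 to 3. Ctsc differed by 1.77 ± 0.35 (SE, adjusted p = 0.00219) on the log2 scale and Ctsz, another cathepsin, by 1.54 ± 0.32 (SE, adjusted p = 0.00316). Cd63, a lysosomal membrane protein, differed by 1.24 ± 0.24 (SE, adjusted p = 0.00152). Sphk1, which makes sphingosine phosphate, differed by 1.85 ± 0.35 (SE, adjusted p = 0.0014). The call of Ctsc ended without IONC 48 h replicate 1 or naive replicate 1 or 3 (adjusted p 0.0107 to 0.0215). The call of Ctsz ended without IONC 48 h replicate 1 or 3 or naive replicate 1 or 3 (adjusted p 0.00843 to 0.0268). The call of Cd63 ended without IONC 48 h replicate 1 (adjusted p = 0.0132). The call of Sphk1 ended without IONC 48 h replicate 1 or naive replicate 1 (adjusted p 0.011 to 0.0125). The count was 5 without IONC 48 h replicate 1 and 4 without naive replicate 1 or 3.

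Iron handling and antioxidant genes counted 7 higher and 2 lower (the transferrin receptor gene Tfrc and the metallothionein Mt3) of 38, with Lcn2 and Cp at the top. Mt2A, a metallothionein that binds zinc and copper, had log2 signals of 9.85, 9.21 and 8.48 in IONC 48 h retinas, against 6.88, 6.77 and 6.68 in naive replicates 1 to 3. Mt2A differed by 2.4 ± 0.35 (SE, adjusted p = 0.00011) on the log2 scale. Srxn1, which restores peroxiredoxins, had log2 signals of 7.80, 8.07 and 7.82 in IONC 48 h retinas, against 6.44, 5.84 and 6.05 in naive replicates 1 to 3. Srxn1 differed by 1.79 ± 0.27 (SE, adjusted p = 0.000201) on the log2 scale, and both calls were kept without any 1 array.

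Of 32 rod genes 1 was higher (Fscn2) and 4 were lower (Grk1, Crx, Rdh12 and the channel subunit Cnga1), with a median log2 change of -0.12. Grk1, rhodopsin kinase, had log2 signals of 9.23, 9.63 and 9.60 in IONC 48 h retinas, against 11.38, 11.41 and 11.42 in naive replicates 1 to 3 and 10.36 and 10.74 in naive replicates 4 and 5. Crushed and naive pools did not overlap, and the log2 difference was -1.92 ± 0.21 (SE, adjusted p = 5.47e-06). Crx, a photoreceptor transcription factor, had log2 signals of 11.18, 11.44 and 11.32 in IONC 48 h retinas, against 12.17, 12.23 and 12.31 in naive replicates 1 to 3 and 10.73 and 11.04 in naive replicates 4 and 5. The log2 difference of Crx was -0.92 ± 0.17 (SE, adjusted p = 0.00147) against naive replicates 1 to 3, while all crushed pools lay above naive replicates 4 and 5. Rdh12, a retinol dehydrogenase, differed by -0.88 ± 0.17 (SE, adjusted p = 0.00137) and the actin bundler Fscn2 by 0.92 ± 0.15 (SE, adjusted p = 0.000308). Of 13 cone genes 1 was higher and 1 lower. Gnb3, the beta subunit of cone transducin, had log2 signals of 11.06, 10.82 and 10.53 in IONC 48 h retinas, against 9.09, 8.96 and 9.06 in naive replicates 1 to 3, and its log2 difference was 1.77 ± 0.22 (SE, adjusted p = 2.53e-05). Opn1sw, the short-wavelength opsin, had log2 signals of 7.82, 7.96 and 8.03 in IONC 48 h retinas, against 9.39, 9.04 and 9.21 in naive replicates 1 to 3 and 8.32 and 8.19 in naive replicates 4 and 5. Opn1sw differed by -1.28 ± 0.21 (SE, adjusted p = 0.000436) on the log2 scale. The call of Crx ended without IONC 48 h replicate 1 (adjusted p = 0.0111). The call of Rdh12 ended without IONC 48 h replicate 1 (adjusted p = 0.0108).

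Bipolar cell genes were lower in 3 of 12 cases and higher in none, and no such call remained without IONC 48 h replicate 1. Prkca, the rod bipolar kinase, differed by -1.0 ± 0.20 (SE, adjusted p = 0.0019) on the log2 scale. Otx2, a factor of photoreceptors and bipolar cells, differed by -0.48 ± 0.10 (SE, adjusted p = 0.00262), and Pcp2 by -0.49 ± 0.11 (SE, adjusted p = 0.0041). The signal of Pcp2 was 11.65 and 11.82 log2 in naive replicates 4 and 5, below all crushed pools (12.01, 12.13 and 12.32). Of 20 amacrine and horizontal cell genes only Calb2, the calcium buffer calretinin, was lower (-0.73 ± 0.14, SE, adjusted p = 0.00203). Pax6 and Gad1 differed by -0.16 ± 0.10 (SE, adjusted p = 0.325) and -0.10 ± 0.12 (SE, adjusted p = 0.569) and did not pass the test. Of 42 genes of glutamate, GABA and glycine receptors 2 were lower. Grin2a, an NMDA receptor subunit, had log2 signals of 3.51, 3.74 and 4.80 in IONC 48 h retinas, against 6.08, 5.88 and 6.39 in naive replicates 1 to 3 and 3.52 and 3.88 in naive replicates 4 and 5, a log2 difference of -2.10 ± 0.39 (SE, adjusted p = 0.00125) against replicates 1 to 3, with replicates 4 and 5 within the range of the crushed pools and a second brightest probe set at 0.05. Gria2, an AMPA receptor subunit, differed by -1.13 ± 0.23 (SE, adjusted p = 0.00278). The call of Prkca ended without IONC 48 h replicate 1 or naive replicate 2 (adjusted p 0.0104 to 0.014). The call of Otx2 ended without IONC 48 h replicate 1 or naive replicate 1 or 3 (adjusted p 0.0114 to 0.0209). The call of Pcp2 ended without IONC 48 h replicate 1 or 2 or naive replicate 1 or 2 (adjusted p 0.015 to 0.0325). The call of Calb2 ended without IONC 48 h replicate 1 or naive replicate 1 (adjusted p 0.0102 to 0.0198). The call of Grin2a ended without IONC 48 h replicate 1 (adjusted p = 0.0115). The call of Gria2 ended without IONC 48 h replicate 1 or naive replicate 1 or 2 (adjusted p 0.0114 to 0.022). Without IONC 48 h replicate 1 no receptor gene and no amacrine gene was called.

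Voltage-gated ion channel genes gave 1 lower call of 73, the sodium channel Scn1a. None was called lower without IONC 48 h replicate 1 or naive replicate 1 or 2, and 5 were without IONC 48 h replicate 3. Kcnv2 and Kcna5, potassium channel subunits, differed by 0.03 ± 0.17 (SE, adjusted p = 0.923) and -0.06 ± 0.13 (SE, adjusted p = 0.764) on the log2 scale, and the calcium channel subunit Cacnb2 by -0.48 ± 0.12 (SE, adjusted p = 0.0121), and none passed the test. Of the 4 measured endothelin system genes Edn2 was the 1 called. The endothelin converting enzymes Ece1 and Ece2 differed by 0.56 ± 0.20 (SE, adjusted p = 0.0819) and -0.01 ± 0.19 (SE, adjusted p = 0.971).

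Retinal pigment epithelium genes, which mark tissue carried over in dissection, gave no call among 12. Their mean log2 signal was 5.31, 5.32 and 5.44 in IONC 48 h retinas and 5.90, 5.99 and 5.58 in naive replicates 1 to 3. The pigment genes Dct and Tyrp1 differed by -0.43 ± 0.66 (SE, adjusted p = 0.687) and -0.38 ± 0.65 (SE, adjusted p = 0.724) on the log2 scale, and Ttr by -0.54 ± 0.28 (SE, adjusted p = 0.265). Rod genes averaged 11.7, 11.8 and 11.7 in IONC 48 h retinas and 11.9, 11.9 and 12.0 in naive replicates 1 to 3.

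Several further genes with large changes belonged to none of these groups. Mlf1, a nucleocytoplasmic adaptor, had log2 signals of 11.09, 9.83 and 9.82 in IONC 48 h retinas, against 6.68, 6.50 and 6.34 in naive replicates 1 to 3, with a log2 difference of 3.74 ± 0.51 (SE, adjusted p = 5.53e-05). Lad1, a filament-anchoring protein, had log2 signals of 7.80, 7.63 and 6.80 in IONC 48 h retinas, against 3.66, 3.86 and 4.19 in naive replicates 1 to 3, with a log2 difference of 3.51 ± 0.50 (SE, adjusted p = 9.51e-05). On the other side Miox, which opens the ring of inositol, had log2 signals of 4.64, 4.62 and 4.81 in IONC 48 h retinas, against 7.20, 7.92 and 7.83 in naive replicates 1 to 3. No pools overlapped, and Miox differed by -2.96 ± 0.41 (SE, adjusted p = 7.13e-05). Irx4, a homeobox factor, had log2 signals of 2.15, 2.17 and 2.19 in IONC 48 h retinas, against 5.39, 4.22 and 4.49 in naive replicates 1 to 3 and 4.84 and 5.35 in naive replicates 4 and 5, and after crush its signal was near the floor. Its log2 difference was -2.53 ± 0.23 (SE, adjusted p = 4.29e-07), and that of its second brightest probe set was 0.04. Tppp3, a tubulin-polymerising protein, had log2 signals of 5.33, 5.59 and 5.28 in IONC 48 h retinas, against 7.13, 7.40 and 7.45 in naive replicates 1 to 3 and 5.64 and 5.68 in naive replicates 4 and 5, with a log2 difference of -1.93 ± 0.22 (SE, adjusted p = 9.14e-06) against replicates 1 to 3, while replicates 4 and 5 lay just above the crushed pools. Cpne4, a calcium-dependent membrane-binding copine, differed by -1.92 ± 0.28 (SE, adjusted p = 0.000109), Dennd2c, a Rab exchange factor, by -2.03 ± 0.28 (SE, adjusted p = 7.15e-05), and the histone gene H4cl1 by -1.98 ± 0.33 (SE, adjusted p = 0.000449).

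Between 48 h and 24 h after crush fewer probe sets differed. The test of IONC 48 h minus IONC 24 h called 33 probe sets (0.106%), 17 higher and 16 lower at 48 h, which stood for 23 genes. Ganglion cell genes were among those lower at 48 h. Nrn1 had log2 signals of 5.79, 6.55 and 6.81 in IONC 48 h retinas, against 8.28, 8.26 and 8.01 in IONC 24 h retinas. The difference was -1.80 ± 0.31 (SE, adjusted p = 0.00961) on the log2 scale. Nefh had 7.44, 8.22 and 8.28 at 48 h, against 9.68, 9.77 and 9.79 at 24 h, a difference of -1.77 ± 0.27 (SE, adjusted p = 0.00345). Rbpms2 had 4.98, 5.22 and 5.42 at 48 h, against 6.87, 7.15 and 6.75 at 24 h, a difference of -1.72 ± 0.29 (SE, adjusted p = 0.00761). Tmod2, a cap of actin filaments in neurons, differed by -1.33 ± 0.22 (SE, adjusted p = 0.00691), and Fxyd7, a brain regulator of the sodium pump, by -2.20 ± 0.29 (SE, adjusted p = 0.000752). Ecel1 was the largest increase, with log2 signals of 4.29, 6.29 and 4.82 at 48 h, against 2.09, 2.11 and 2.58 at 24 h. The difference was 2.87 ± 0.35 (SE, adjusted p = 0.000441), with the signals at 24 h close to the floor. Also higher were Esrrb, an orphan nuclear receptor of rods (1.54 ± 0.24, SE, adjusted p = 0.00353), Tbata (1.54 ± 0.22, SE, adjusted p = 0.00195) and Fam110a (1.26 ± 0.18, SE, adjusted p = 0.00192). Homer3, a scaffold of glutamate receptors, was higher too (1.26 ± 0.20, SE, adjusted p = 0.00367).

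Most of these calls ended when 1 array was left out. The call of Nrn1 at 48 h against 24 h ended without IONC 48 h replicate 1 or 2 or IONC 24 h replicate 1, 2 or 3 (adjusted p 0.0233 to 0.0778). For Nefh it ended without IONC 48 h replicate 1 or IONC 24 h replicate 1, 2 or 3 (adjusted p 0.0119 to 0.0293). For Rbpms2 it ended without IONC 48 h replicate 1 or 2 or IONC 24 h replicate 1, 2 or 3 (adjusted p 0.0229 to 0.0513). For Tmod2 it ended without IONC 48 h replicate 1 or 2 or IONC 24 h replicate 2 or 3 (adjusted p 0.0228 to 0.0602). Esrrb lost it without IONC 48 h replicate 2 or IONC 24 h replicate 2 or 3 (adjusted p 0.0172 to 0.024). Tbata lost it without IONC 48 h replicate 1 or IONC 24 h replicate 2 (adjusted p 0.013 to 0.016). Fam110a lost it without IONC 48 h replicate 1 or IONC 24 h replicate 3 (adjusted p 0.0129 to 0.0173). Homer3 lost it without IONC 48 h replicate 1 or 2 or IONC 24 h replicate 1 or 2 (adjusted p 0.0168 to 0.0315). The calls of Ecel1 and Fxyd7 were kept.

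Set against the same naive replicates 1 to 3, the mean log2 change of Nrn1 was -0.62 after 24 h, -2.42 after 48 h, -2.58 after 3 d and -4.77 after 7 d of crush. Sncg changed by -0.30, -1.56, -1.72 and -2.06 at the same times, and Nefl by -0.03, -1.07, -1.11 and -2.47. These series share their naive arrays, so their values are given side by side without a test between them. Tmod2 and Fxyd7 differed from naive replicates 1 to 3 by -1.13 ± 0.22 (SE, adjusted p = 0.00201) and -1.50 ± 0.29 (SE, adjusted p = 0.00147) at 48 h. The call of Tmod2 ended without IONC 48 h replicate 1 or 2 or naive replicate 2 or 3 (adjusted p 0.011 to 0.0191). The call of Fxyd7 ended without IONC 48 h replicate 1 (adjusted p = 0.0111).

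**Figure D4:**
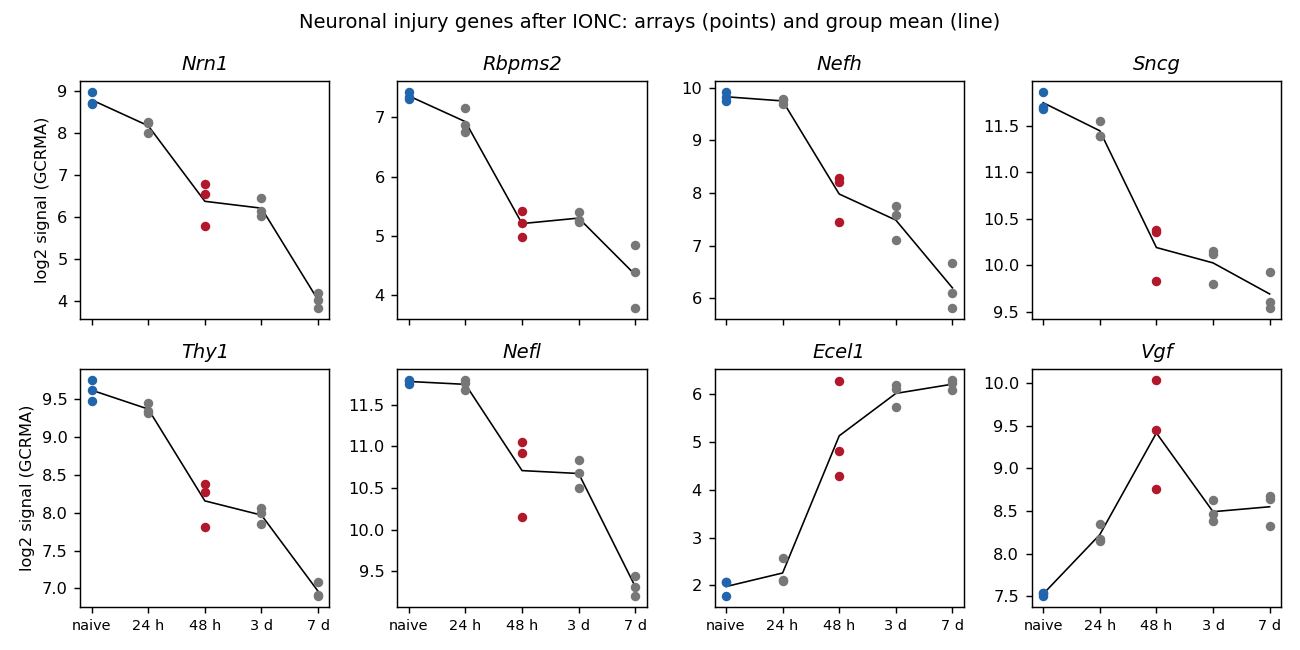
Log2 signal per array of 8 genes in naive replicates 1 to 3 and then 24 h, 48 h, 3 d and 7 d after IONC, with points for arrays and a line through the group means. Nrn1 lies at 5.79 to 6.81 at 48 h, below the naive range of 8.69 to 8.99, and Ecel1 at 4.29 to 6.29, above the naive range of 1.78 to 2.08.

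Crush and transection differed at 48 h in 190 probe sets (0.612%), of which 102 were higher and 88 lower after crush, and these stood for 100 genes. In the difference IONC 48 h minus IONT 48 h, Atf3 was lower. It had log2 signals of 7.68, 7.12 and 7.32 in IONC 48 h retinas, against 9.27, 9.46 and 9.52 in IONT 48 h retinas and 9.32, 9.45 and 9.34 in naive replicates 1 to 3. The transected pools lay at the naive level and the crushed pools below both, with a difference of -2.05 ± 0.13 (SE, adjusted p = 1.92e-08) on the log2 scale. Opn1sw had 7.82, 7.96 and 8.03 in IONC 48 h retinas, against 6.17, 5.84 and 5.76 in IONT 48 h retinas. Here the crushed pools were the higher ones, with a difference of 2.01 ± 0.21 (SE, adjusted p = 2.45e-05). Esrrb had 9.91, 10.31 and 10.48 in IONC 48 h retinas, against 7.94, 8.04 and 8.16 in IONT 48 h retinas, and Tmem116 had 7.50, 7.60 and 7.77, against 5.62, 4.78 and 4.97. The differences were 2.19 ± 0.24 (SE, adjusted p = 4.27e-05) and 2.5 ± 0.32 (SE, adjusted p = 0.000218). Tbata differed by 1.68 ± 0.22 (SE, adjusted p = 0.000316) and Pla2r1, a phospholipase receptor, by 1.56 ± 0.26 (SE, adjusted p = 0.00181). Lower after crush than after transection were Kif11, a mitotic motor (-3.24 ± 0.52, SE, adjusted p = 0.00156), Col8a1, a collagen of basement membranes (-2.09 ± 0.40, SE, adjusted p = 0.00766), Ahr, the aryl hydrocarbon receptor (-2.0 ± 0.35, SE, adjusted p = 0.00326), and Capn1, a calpain protease (-1.99 ± 0.27, SE, adjusted p = 0.000329). Signals of Capn1 were low, at 2.49, 2.38 and 1.94 in IONC 48 h retinas, against 3.25, 5.05 and 4.50 in IONT 48 h retinas.

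Leaving out single arrays ended some of these calls. Kif11 lost it without IONC 48 h replicate 2 or IONT 48 h replicate 2 or 3 (adjusted p 0.0111 to 0.0123). Col8a1 lost it without IONC 48 h replicate 1, 2 or 3 or IONT 48 h replicate 1 or 2 (adjusted p 0.0129 to 0.0502). Ahr lost it without IONC 48 h replicate 2 or IONT 48 h replicate 1 or 3 (adjusted p 0.0109 to 0.0287). Pla2r1 lost it without IONT 48 h replicate 2 (adjusted p = 0.0149). The calls of Atf3, Capn1, Tmem116, Esrrb, Opn1sw and Tbata were kept. Of the 190 probe sets 58 were also called against naive retinas, a comparison that shares the crushed arrays.

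**Figure D5:**
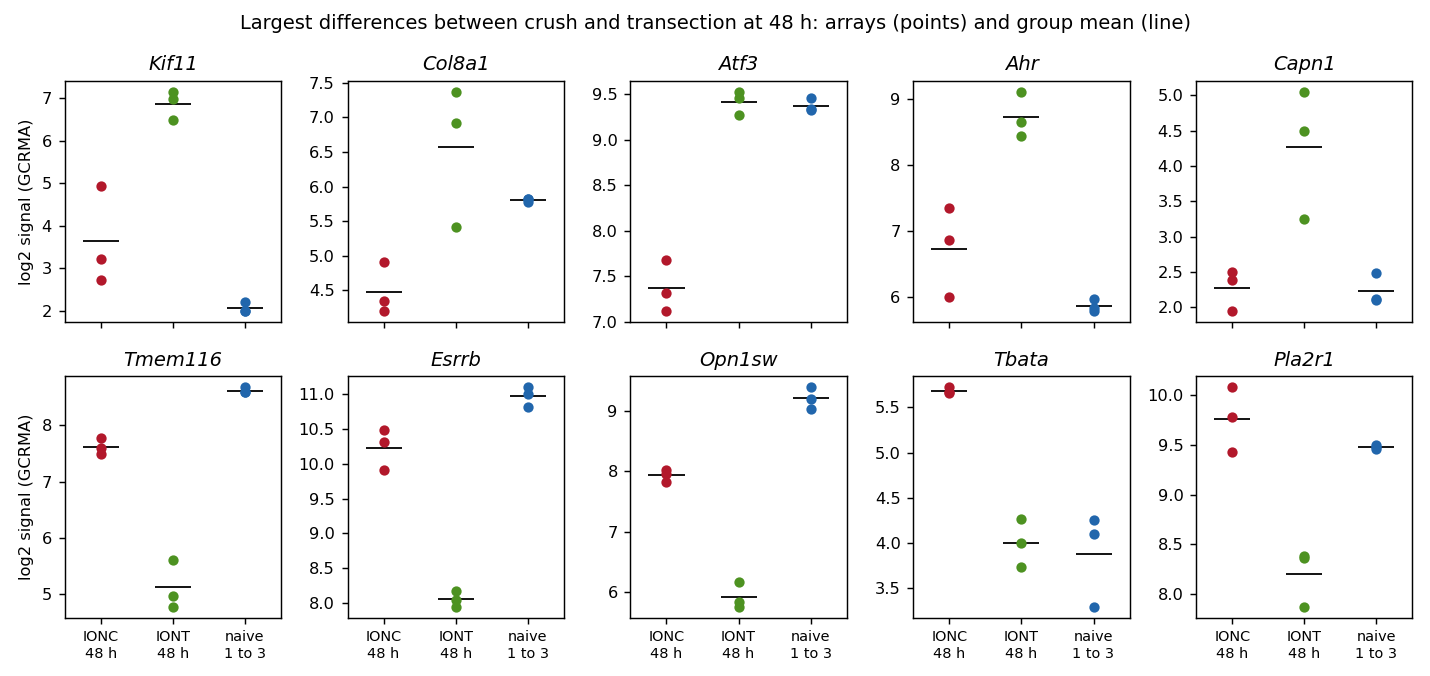
Log2 signal per array of 10 genes that differ between IONC 48 h and IONT 48 h retinas, in the order IONC 48 h, IONT 48 h and naive replicates 1 to 3, with points for arrays and a line at each group mean. For Atf3 the crushed pools (7.12 to 7.68) lie below the transected and the naive pools.

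Naive replicates 4 and 5 differed from naive replicates 1 to 3 in 3989 probe sets by the same rule, more than crush did. With replicates 4 and 5 as the only naive arrays, 4564 probe sets were called, and the difference between these arrays in the 3′ and 5′ control signals cannot be told apart from the crush there. Of the genes described, Gfap, Serpina3n, C3, Egr1, Mthfd2, Trib3 and Nrn1 had all 3 crushed pools beyond all 5 naive pools. All of these except C3 were named among the largest changes, a choice that required this property. For them it is therefore not a separate check against replicates 4 and 5. Among the called genes described, Jun, Crx, Pcp2, Slc1a3 and Grin2a had the opposite direction against replicates 4 and 5.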

How the data were processed

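RNA pools of 4 left retinas were each hybridised to 1 Affymetrix RAE230.2 array. The deposited values are log2 signals that the authors computed with GCRMA from all arrays together, without detection calls or depth, and the number of arrays limits the precision. The authors tested each time point with limma and also the time course with maSigPro, which was not run here. Here limma 3.58.1 in R 4.3.3 was fitted to 31042 probe sets (57 control probe sets left out) on 32 arrays, all but the 3 of IONC 12 h retinas, 1 of which stood apart from all others (median correlation 0.871), with naive arrays above and below a beta-actin 3′ minus 5′ difference of 2.4 log2 as separate groups. A call needed a Benjamini-Hochberg adjusted p under 0.01, B above 0 and at least 1.2-fold. Probe sets named 1 gene in 20826 cases, several in 436 and none in 9780 (platform annotation of 2016), and a gene was read from its brightest probe set. Named genes were the 15 largest called increases and the 15 largest decreases with all crushed pools beyond all 5 naive arrays, up to 4 called genes with the largest changes of each described list (or its 3 brightest where fewer than 2 were called), the 5 that differed most each way from IONC 24 h or IONT 48 h retinas, genes the study measured by PCR, and others marked as chosen after their values were seen. Crip2, Gadd45a, Gadd45g, Ier3, Ltbr, Tfrc, Mt3, Cnga1, Scn1a, Yars1 and Qars1 were named only to complete small counts, after their values were seen. Members, lists and rules were chosen with earlier results of these data known. On simulated data of this design, 72 of 100 probe sets changed by 1 log2 unit and 97 of 100 changed by 2 were recovered, with 2 false calls among 30842. The simulated noise was normal, independent and equally wide in all groups, and changes were placed only in brighter probe sets. In the data the median standard deviation was 0.104 log2 in IONC 48 h retinas and 0.063 in naive replicates 1 to 3. These rates therefore need not hold for the data. Other array sets, normalisation, weights, filters and thresholds were tried as alternatives.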

Additional observations from a re-analysis of the deposited data

Results flagged for a closer look

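In 8 of the named genes 1 of the 5 naive arrays lay far from the others, with a gap to its nearest neighbour that took a large share of the whole range of the 5 arrays. The share was 0.893 for P2ry12 and 0.806 for Dennd2c (both naive replicate 1), and 0.88 for Tyrobp (naive replicate 3). For Fxyd7 it was 0.86, for Cacnb2 0.795 and for Fscn2 0.772, all in naive replicate 4. For Nefl it was 0.848 and for Kcnv2 0.77, both in naive replicate 5. Chance passes the limit of 0.71 in about 1 in 20 groups of 5, and 149 named genes were looked at. Replicates 4 and 5 also had a beta-actin 3′ minus 5′ difference of 3.19 and 2.98.

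For 14 named genes the limma test of IONC 48 h minus IONT 48 h called a difference between crush and transection. Most of them had been named because they differed most in this same test, so their number follows in part from that choice. Among all 31042 probe sets the test called 190 (0.612%). On the log2 scale the difference was -3.24 for Kif11, -2.09 for Col8a1, -2.05 for Atf3, -2.0 for Ahr and -1.99 for Capn1. It was -1.44 for Ttr, -1.22 for Stat3, -1.14 for Tmod2 and -0.95 for Cebpg. In the other direction it was 2.5 for Tmem116, 2.19 for Esrrb, 2.01 for Opn1sw, 1.68 for Tbata and 1.56 for Pla2r1. Of these, Atf3, Cebpg, Stat3, Opn1sw, Tbata and Tmod2 were also called against naive replicates 1 to 3.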

How the results depend on the processing

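The count of 1458 probe sets called against naive replicates 1 to 3 depended on the arrays in the fit. It was 254 from the 6 arrays alone (25.2% of them higher, against 35.4%), 422 with all 35 arrays and 498 with all 5 naive arrays as 1 group. Naive replicates 4 and 5 gave 4564, array weights 2230, and an adjusted p under 0.05 without B 3302. Leaving out 1 array at a time gave 836 to 1812 calls, of which 32.5% to 43.5% were higher. The count was 836 without IONC 48 h replicate 1, 876 without naive replicate 2 and 952 without naive replicate 3. Cyclic loess between arrays raised the higher share to 43.6%.

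The count of 190 probe sets for IONC 48 h minus IONT 48 h was 45 with all 35 arrays, 32 with the naive arrays also as 1 group, 399 with array weights and 581 at an adjusted p under 0.05 without B. Leaving out 1 array gave 68 (without IONT 48 h replicate 3) to 417 (without IONC 48 h replicate 3), and it was 111 with IONC 48 h replicate 2 removed and 101 with IONT 48 h replicate 2 removed. The count of 33 for IONC 48 h minus IONC 24 h was 8, 4, 760 and 117 under those 4 settings, in the same order. Leaving out 1 array gave 15 (without IONC 24 h replicate 3) to 276 (without IONC 48 h replicate 3), and it was 16 with IONC 48 h replicate 1 removed and 19 with IONC 24 h replicate 2 removed. The causes were not tested.

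Deviations from the group means of same-numbered IONC 48 h and naive arrays correlated at 0.14, -0.01 and -0.10. Differently numbered arrays gave -0.197 to 0.195. With 3 arrays per group these values cannot show whether the replicate numbers pair the samples. With the replicate block the counts were 1514, 204 and 29.

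Of the 111 called named genes, 77 lost the call with the 6 arrays alone, 44 with all 35 arrays and 41 against naive replicates 4 and 5. Some log2 changes took the opposite sign. Against naive replicates 4 and 5 these were Jun 0.45, Slc1a3 -0.14, Crx 0.43, Pcp2 0.42, Pax6 0.15, Cxcl14 -0.0617, Hbb 0.30, Mcl1 0.67, Kcnv2 -0.11, Kcna5 0.19, Grin2a 0.31, Col8a1 0.0577, Pla2r1 -0.70, Isl1 0.84, Tubb3 0.54 and Jak2 0.10. With all naive arrays as 1 group they were Hbb 0.0741, Mcl1 0.20, Kcnv2 -0.0266, Kcna5 0.0359, Pla2r1 -0.11, Isl1 0.17 and Tubb3 0.0519. For the second brightest probe set they were Irx4 0.0395, Rbpms2 0.047, Mcl1 0.0306, Bnip3l -0.0257, Grin2a 0.0515, Isl1 0.0263 and Tubb3 0.0349. With array weights they were Kcnv2 -0.0477 and Ece2 0.0563, and with cyclic loess Tradd -0.000562. Leaving out 1 array at a time, the changes of 8 genes that did not pass the test crossed 0: Gad1 -0.24 to 0.0794, Ccl6 -1.05 to 0.46, Hbb -0.38 to 0.36, Kcnv2 -0.0276 to 0.11, Kcna5 -0.18 to 0.16, Ece2 -0.10 to 0.15, Capn1 -0.0676 to 0.21 and Pou4f1 -0.22 to 0.0239.

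The arrays carry no detection call, so signals near the floor (below 2.37 to 2.45 log2) cannot be told apart from background.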
